A study of Oryza sativa with 12 samples.

Results

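Of the 40424 gene identifiers counted in shoots of indica rice seedlings, 35 were far more abundant at the end of the day than at the end of the night while differing little on average between chilled and unchilled seedlings. These 35 members were chosen by the group means of the same 12 libraries described here. Counts were divided by a median-of-ratios size factor for each library, which gives scaled counts, and M is log2 of a group's mean scaled count plus 1. A member had an M of at least 8 in some group, which is a mean of 255 scaled counts. It also had an M lower by at least 2 at the end of the night than at the end of the day at 28 °C, a ratio of at least 4. Finally, its M differed by less than 0.5 between chilled and unchilled seedlings at either time, which bounds the chilling ratio between 0.707 and 1.41. The daily difference and both chilling differences of the members are therefore descriptions and not findings.

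The seedlings were of cultivar 93-11, a single genotype, and were grown to the three-leaf stage for about 10 days at 28 °C, with light and dark periods of 12 h each. Zeitgeber time (ZT) is counted in hours from lights-on, so ZT12 is the end of the light period and ZT24 the end of the dark period. NT12 and NT24 stayed at 28 °C until harvest at ZT12 or ZT24, and CT12 and CT24 spent the last 4 h before the same harvest times at 13 °C, a chilling temperature for rice. Each group had 3 biological repeats of 5 pooled plants, harvested above ground on day 11, with total counts between 42966604 and 52762123 per library. The labels do not say whether the light regime was kept up during the chilling. The whole above-ground part was used, so a lower count can mean fewer cells of a type or less RNA per cell, and these cannot be told apart.

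Plants keep time with a circadian clock, a loop of transcription factors that repress and activate each other over the day. In rice as in Arabidopsis, genes of the evening side of this loop, such as GIGANTEA, PRR1 (the rice TOC1) and the evening complex genes ELF3, ELF4 and LUX, reach high levels late in the day. Light, sugars from photosynthesis and temperature also drive daily changes in transcripts, so a gene that is high at dusk need not belong to the clock. Chilling is known to damp or shift many daily rhythms in plants.

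The files do not pair the identifiers with gene names, and 0 of the 35 members matched the reference gene table. No role can therefore be given for any member, and it is not known whether clock genes are among them. Green-tissue markers could not be checked for the same reason. Only 2 times of day were sampled. "Dusk-high" here means higher at ZT12 than at ZT24, and the time of each member's peak is not known.

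Members were scarce among genes with the same daily pattern. Of the 16290 genes with an M of at least 8 in some group, here called abundant genes, 917 were dusk-high by the same limit on the daily difference. The 35 members made up 3.82% of these. Among all abundant genes, 4800 (29.5%) met both limits on the chilling change. Of the 907 abundant genes that were higher at ZT24 by the mirrored limit, 60 (6.62%) met them. The daily difference and the chilling changes share the NT12 and NT24 libraries, so these shares are not independent of each other. A further 246 dusk-high genes missed membership only by their change at ZT24 and 106 only by their change at ZT12.

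**Figure D1:**
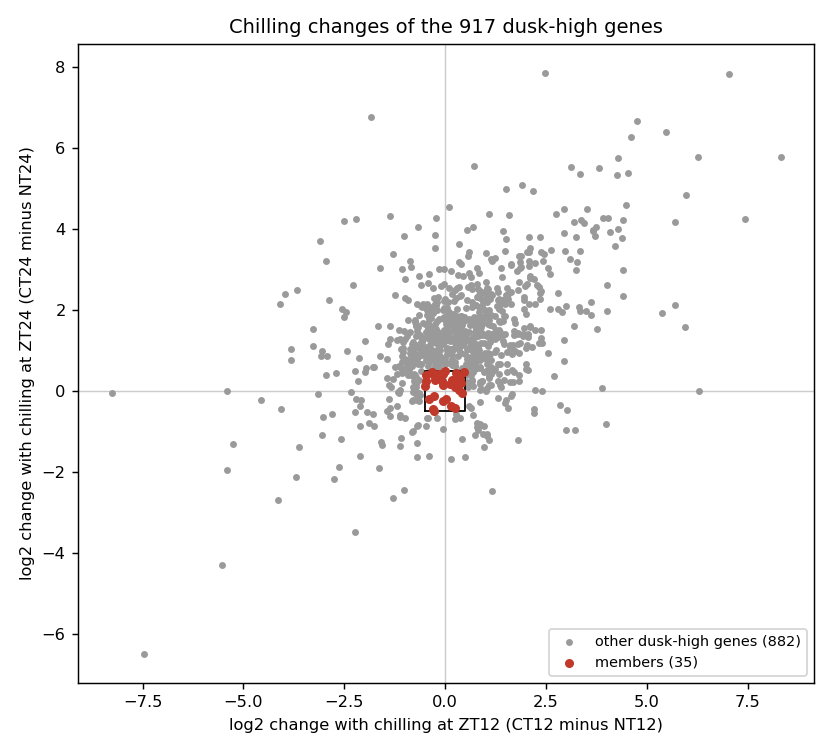
Each point is 1 of the 917 dusk-high genes, with the log2 change of M with chilling at ZT12 on the horizontal axis and at ZT24 on the vertical axis. The square marks the limits of 0.5, the 35 members lie inside it by choice, and 246 of the genes outside it fail by the vertical limit alone.

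The limits cut through a continuous range. The genes outside given here are those that failed a single limit and met all the others. The member with the smallest daily difference had a difference in M of -2.01, and the nearest such gene outside had -1.93. The largest chilling difference of a member at ZT12 was 0.497 in size, against 0.507 for the nearest such gene, and at ZT24 it was 0.488 against 0.503. The least abundant member had a largest M of 8.10, and the nearest such gene had 7.93.

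In NT12 the members' mean scaled counts ran from 244 to 126123 with a median of 1723, and in CT12 from 242 to 121011 with a median of 1499. In NT24 they ran from 43.7 to 9890 (median 262) and in CT24 from 43.4 to 13201 (median 330). The lowest raw count of a member in any library was 10, and 5 members had under 50 counts in some library. All 35 passed the expression filter. Gene lengths are not in the files, so these levels are counts per gene and do not rank the genes by transcript number.

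The difference in M between NT24 and NT12 ranged from -3.67 to -2.01, with a median of -2.34 and 27 of the 35 members above -2.5. The corresponding NT12 to NT24 ratios ran from 4.03 to 12.8 with a median of 5.06. In each of the 35 members the 3 NT24 libraries lay below the 3 NT12 libraries, as they did in 28.3% of the 24700 genes tested. All 35 were called lower in NT24 than in NT12 (quasi-likelihood test of edgeR, p adjusted by Benjamini-Hochberg, threshold 0.05), against 20.9% of the genes tested. The rule required the difference in group means and so favoured these counts, and nothing is read from them. Most members sat close to the limit, and 4 had a difference of -3 or lower, which is 8-fold or more.

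**Figure D2:**
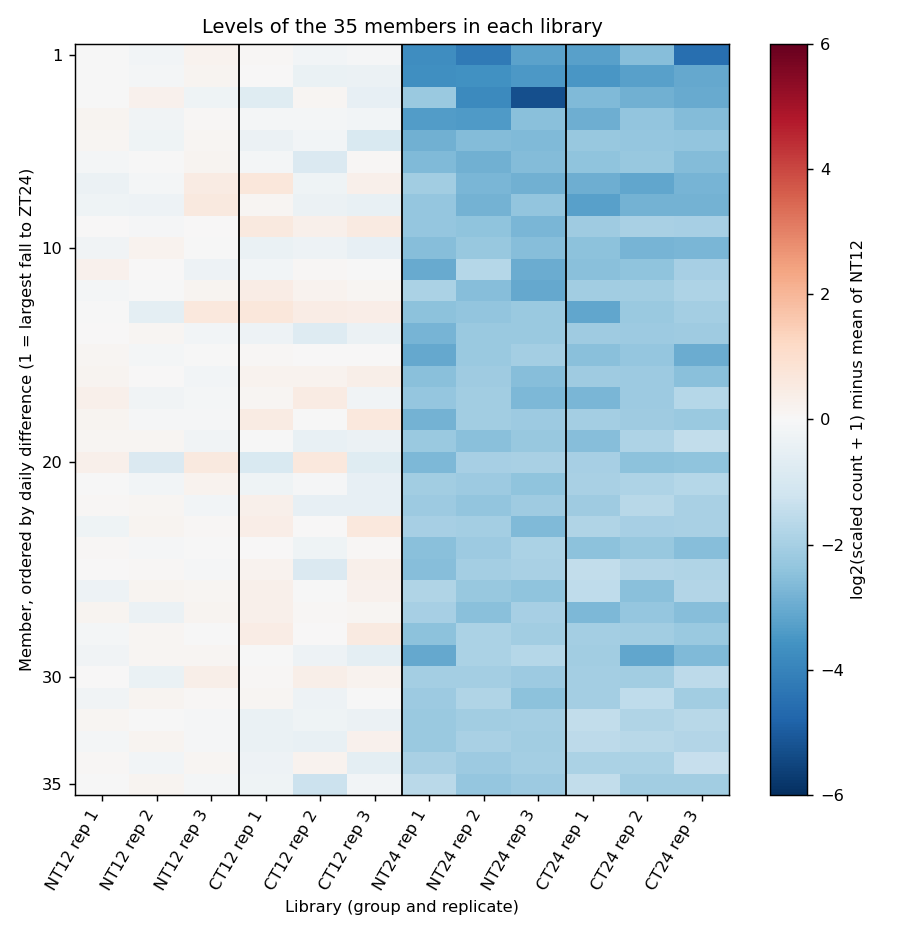
Colour gives log2 of the scaled count plus 1 in each library minus the member's mean over the NT12 libraries, with the 35 members in rows and the 12 libraries in columns. At each temperature the ZT24 libraries are below the ZT12 libraries in every member, and the darkest single cell belongs to the third row, whose scaled count was 10.1 in NT24 replicate 3.

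OsR498G0917884300.01 had both the largest daily difference and the highest counts. Its scaled counts were 122133, 111004 and 145233 in NT12 and 132299, 110521 and 120212 in CT12. They were 9353, 6710 and 13608 in NT24 and 12956, 21161 and 5487 in CT24. The dusk libraries of both temperatures overlapped, the dawn libraries of both temperatures overlapped, and no dawn library came near a dusk library. The means were 126123 ± 17460 in NT12 and 9890 ± 3480 in NT24 (SD, n = 3), a ratio of 12.8, and the ratio of CT12 to CT24 was 9.17. In proportion to their means the dawn libraries differed among themselves more than the dusk libraries, with CT24 spanning 5487 to 21161.

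This gene alone held between 0.323% and 0.409% of all counts in the NT12 libraries and between 0.194% and 0.209% in the CT12 libraries. At ZT24 its share was between 0.0151% and 0.0291% in NT24 and between 0.0117% and 0.0432% in CT24. The other 34 members together held 0.192% to 0.202% in NT12, 0.116% to 0.121% in CT12, 0.0267% to 0.0335% in NT24 and 0.0311% to 0.0350% in CT24. As shares of all counts, both quantities were lower in every CT12 library than in every NT12 library.

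OsR498G0203190800.01 had the second largest daily difference, and its replicates agreed closely. Its scaled counts were 3119, 2907 and 3515 in NT12 and 3271, 2404 and 2510 in CT12. At ZT24 they were 246, 253 and 286 in NT24 and 285, 330 and 377 in CT24. Chilled and unchilled libraries overlapped at ZT12, while at ZT24 the lowest chilled library lay just under the highest unchilled one. The ratio of ZT12 to ZT24 was 12.1 at 28 °C and 8.23 under chilling.

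OsR498G1019001200.01 had the second highest counts. It had 7684, 9112 and 8151 scaled counts in NT12, 11442, 8331 and 11977 in CT12, 1494, 2240 and 1946 in NT24, and 2030, 1929 and 1790 in CT24. At ZT12 only CT12 replicate 2 fell within the NT12 range, and at ZT24 the chilled libraries lay inside the unchilled range. Its ratio of ZT12 to ZT24 was 4.39 at 28 °C and 5.52 under chilling.

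**Figure D3:**
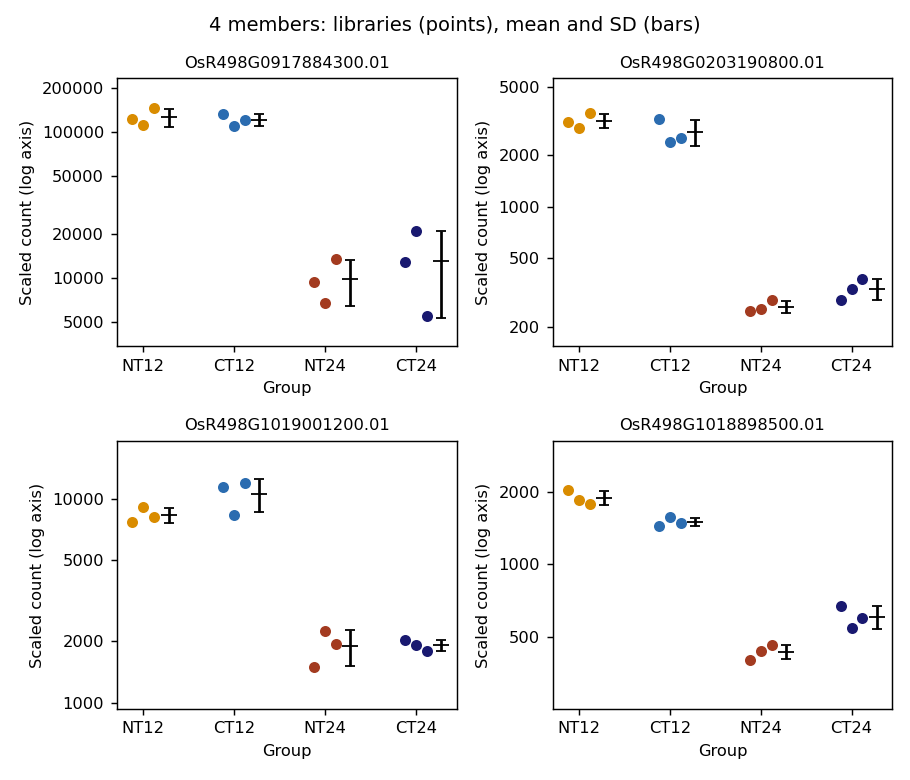
Points are the scaled counts (log axis) of each library for 4 members, grouped by NT12, CT12, NT24 and CT24, and bars give the mean and SD of 3 libraries. The panel of OsR498G0917884300.01 shows dusk libraries from 110521 to 145233 and dawn libraries from 5487 to 21161, and that of OsR498G1018898500.01 shows no overlap between any of its 4 groups.

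The daily difference was also present between the chilled groups, where the rule bounds it without setting it. The difference in M between CT24 and CT12 had a median of -2.26 and ranged from -3.24 to -1.31, with 24 members at -2 or lower and 11 above -2. It was smaller in size than at 28 °C in 23 of the 35 members. Members were chosen for a large difference at 28 °C and not under chilling. The choice itself favours a smaller chilled difference, and nothing is read from this number. Ratios of CT12 to CT24 ran from 2.47 to 9.44 with a median of 4.79. In all 35 members the CT24 libraries lay below the CT12 libraries (24.9% of the genes tested), and all 35 were called lower in CT24 (21.8% of the genes tested). With the limit on the daily difference, the limits on the chilling changes allow no value above -1. The choice of members therefore favours these counts, and nothing is read from them. Chilling lasted only the last 4 h, and a daily difference that arose before it cannot be told apart from one that arose during it.

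On the rule's scaling, the members' group means changed little with chilling at the end of the day, as the rule required. In edgeR's fit the log2 changes from NT12 to CT12 had a median of -0.08 and ranged from -0.50 to 0.46, with 22 estimates below 0 and 13 above. The median over all genes tested was -0.02, and over the abundant genes it was 0.14. Membership required high NT12 values, which are the base of this change, and the part of this was not tested. Chilled and unchilled libraries did not overlap in 6 members, against 54.0% of the genes tested. Called members numbered 4, of which 1 rose and 3 fell, against 44.9% of the genes tested.

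A difference in mean below 0.5 is not the same as a change shown to be small. The standard errors (SE) of the members' log2 changes at ZT12 had a median of 0.22 and ran from 0.11 to 0.53. The 95% interval lay within a 2-fold change, that is between -1 and 1, for 30 members, and within 0.5 of 0 for 1 member. At ZT24 the median SE was 0.23 and these numbers were 28 and 2. At both times together, 26 members had intervals within 2-fold, 4 at ZT12 only, 2 at ZT24 only and 3 at neither time. Because members were picked for estimates near 0, the intervals are too favourable to small changes.

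**Figure D4:**
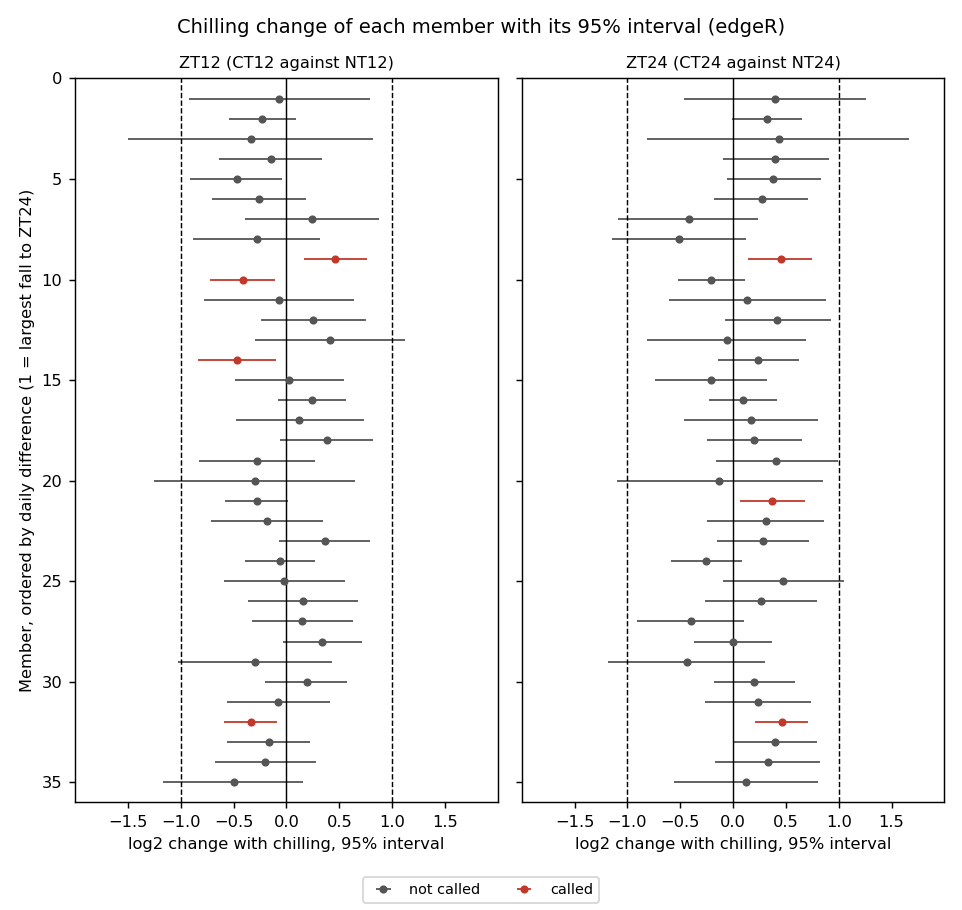
Points are edgeR's log2 changes with chilling for each of the 35 members at ZT12 (left) and ZT24 (right), with 95% intervals and dashed lines at a 2-fold change. Red marks the 4 members called at ZT12 and the 3 called at ZT24, and 26 members have both intervals between the dashed lines.

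The widest intervals belonged to OsR498G0102566400.01, which was named after its values were seen. Its scaled counts were 430, 521 and 356 in NT12, 263, 474 and 301 in CT12, 91.8, 29.2 and 10.1 in NT24, and 68.1, 57.9 and 52.3 in CT24. The NT24 libraries spread on both sides of the CT24 libraries. Its interval ran from -1.50 to 0.82 at ZT12 and from -0.81 to 1.66 at ZT24, so changes beyond 2-fold are compatible with its data at either time.

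The only member called higher at ZT12 was OsR498G0816438900.01. It had 941, 883 and 934 scaled counts in NT12 and 1383, 1117 and 1325 in CT12, so every chilled library lay above every unchilled one. The log2 change came to 0.46 (SE 0.14, adjusted p = 0.0163 in edgeR), and over the 19 alternatives that p lay between 0.00224 and 0.327. The call was lost without CT12 replicate 1 (edgeR adjusted p = 0.0723) or 3 (0.0598), without any 1 of the NT12 replicates (0.0541, 0.0832 and 0.0668), and under upper-quartile scaling (0.327), and under total-count scaling the estimate turned to -0.30.

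The 3 members called lower at ZT12 were OsR498G0714756300.01, OsR498G0611513900.01 and OsR498G1018898500.01, the first 2 of them named after their values were seen. OsR498G0714756300.01 fell from 1898, 2533 and 2133 to 1672, 1763 and 1520 scaled counts, a change of -0.41 in log2 (SE 0.14, adjusted p = 0.0321 in edgeR). Its highest chilled library was below its lowest unchilled one, and the call was lost without NT12 replicate 2 (adjusted p = 0.0979, edgeR), CT12 replicate 1 (0.0594) or CT12 replicate 3 (0.0905). Over the 19 alternatives its adjusted p lay between 0.000142 and 0.0979. OsR498G0611513900.01 fell from 1753, 1880 and 1536 to 1395, 1010 and 1339, a change of -0.47 in log2 (SE 0.17, adjusted p = 0.0403 in edgeR). Its chilled and unchilled libraries did not overlap, and the call was lost in 7 of 19 alternatives, with adjusted p from 8.72e-05 to 0.106. It was lost without NT12 replicate 1 (0.0703) or 2 (0.0938), CT12 replicate 2 (0.106) or 3 (0.0538), and CT24 replicate 1 (0.0529) or 3 (0.0520), and under a block on replicate number (0.0722).

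The number of calls at ZT12 depended on single libraries. It was 1 without NT12 replicate 1 or CT12 replicate 3, 2 without NT12 replicate 2 or CT12 replicate 1, and 7 without CT12 replicate 2. Among all genes tested, 9653 of 25113 were called without NT12 replicate 1 and 9913 of 25230 without CT12 replicate 3. Without NT12 replicate 2 these were 9526 of 25091, and without CT12 replicate 1 they were 9796 of 25213. Without CT12 replicate 2 they were 11867 of 25189, against 11096 of 24700 with all libraries. CT12 replicate 2 had a size factor of 0.803, against 0.680 and 0.715 in the other CT12 libraries. It differed from them by 138 and 139 in chi-square per gene, and they differed from each other by 32.3.

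Beyond the called members, the lowest fitted changes at ZT12 were those of OsR498G0408461300.01 and OsR498G0203410500.01. OsR498G0408461300.01 had 632, 705 and 579 scaled counts in NT12 and 537, 258 and 563 in CT12, so its log2 change of -0.50 (SE 0.30) rested largely on CT12 replicate 2 and was -0.23 at its smallest with 1 library left out. Its change was called under upper-quartile (edgeR adjusted p = 0.0409) and total-count scaling (0.00175), and in none of the other alternatives. OsR498G0203410500.01 had 601, 465 and 594 against 424, 484 and 292, a change of -0.47 in log2 (SE 0.20, adjusted p = 0.0700 in edgeR, and 0.000728 to 0.201 over 19 alternatives). It was called without CT12 replicate 2 (edgeR adjusted p = 0.0244) or NT12 replicate 2 (0.0443), and its change was -0.31 without CT12 replicate 3. The call was also made under upper-quartile (edgeR adjusted p = 0.00810) and total-count scaling (0.000728), and with limma-voom (0.0426). The second highest estimate was that of OsR498G0511415500.01, with 226, 150 and 355 in NT12 against 363, 315 and 298 in CT12. The libraries of the 2 groups overlapped, and the log2 change of 0.41 (SE 0.32) did not pass the test. It was 0.12 without NT12 replicate 2 and 0.74 without NT12 replicate 3.

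Chilling at the end of the night gave estimates on the higher side for most members. The log2 changes from NT24 to CT24 had a median of 0.24 and ranged from -0.51 to 0.47, with 26 estimates above 0 and 9 below. The median was 0.00 over all genes tested and 0.07 over the abundant genes. Among all 917 dusk-high genes, the difference in M between CT24 and NT24 had a median of 1.27, and 707 (77.1%) had a difference of 0.5 or higher, which members could not have. At ZT12 the median of these genes was 0.34. The selection allows either sign, and the limits on it are symmetric. Membership also required low NT24 values, the base of this change, and high NT12 values, the base of the change at ZT12. The part of this in the signs at either time was not tested. Chilled and unchilled libraries did not overlap in 12 members, against 56.9% of the genes tested. The 3 called members all rose, against 42.1% of the genes tested called in either direction.

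These were OsR498G1018898500.01, OsR498G0816438900.01 and OsR498G0611807100.01. OsR498G1018898500.01 had 403, 439 and 463 scaled counts in NT24 and 673, 546 and 597 in CT24, a change of 0.46 in log2 (SE 0.11, adjusted p = 0.00717 in edgeR). Every chilled library was above every unchilled one, and the call held in all 19 alternatives (adjusted p 0.000322 to 0.0369). OsR498G0816438900.01, which also rose at ZT12, had 183, 174 and 137 against 207, 241 and 232, a change of 0.45 in log2 (SE 0.14, adjusted p = 0.0242 in edgeR). Its groups did not overlap, but the call was lost in 5 alternatives, among them those without NT24 replicate 3 (adjusted p = 0.0962, edgeR), CT24 replicate 2 (0.0927) or CT24 replicate 3 (0.0602). Over the 19 alternatives its adjusted p lay between 0.0101 and 0.0962.

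The third, OsR498G0611807100.01, named after its values were seen, had 525, 494 and 427 scaled counts in NT24 and 588, 630 and 676 in CT24. Its groups did not overlap, yet its log2 change of 0.37 (SE 0.14, edgeR adjusted p = 0.0480) kept its call in only 4 of 19 alternatives, and adjusted p ranged from 0.0344 to 0.180. The count of calls at ZT24 was 1 without CT24 replicate 2 or 3 and 6 without NT24 replicate 1. Among all genes tested, 8752 of 25224 were called without CT24 replicate 2 and 8729 of 25135 without CT24 replicate 3. Without NT24 replicate 1 these were 9341 of 25130, against 10398 of 24700 with all libraries.

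The member with the highest fitted change at ZT24 was not among those called. OsR498G0815335100.01 had 552, 765 and 821 scaled counts in NT24 and 1155, 937 and 907 in CT24, a log2 change of 0.47 (SE 0.26). The chilled libraries lay above the unchilled ones, and the fit takes its spread from all 12 libraries, where CT12 replicate 2 had 1777 against 3723 and 4008 in the other CT12 libraries. It was called without CT12 replicate 2 (edgeR adjusted p = 0.0308, against 0.171 with all libraries and up to 0.440 over 19 alternatives), and the change was 0.30 without NT24 replicate 1. The lowest changes were those of OsR498G1222022000.01, with 75.0, 52.3 and 72.4 in NT24 and 38.6, 51.7 and 51.4 in CT24 (log2 change -0.51, SE 0.29), and OsR498G0917804500.01, with 437, 1006 and 1125 against 873, 427 and 600 (log2 change -0.44, SE 0.34). The first did not overlap between groups and the second overlapped widely. Neither passed the test, although OsR498G0917804500.01 did so without NT24 replicate 1 (edgeR adjusted p = 0.0423, against 0.320 with all libraries and up to 0.726 over 19 alternatives). With 1 library left out, its change ran from -0.78 without NT24 replicate 1 to -0.19 without NT24 replicate 3.

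The response to chilling differed between times of day in 2 members, against 22.2% of the genes tested (interaction term of edgeR's fit). Both were estimated lower after chilling at ZT12 and higher after chilling at ZT24, as were 17 of the 35 members. A further 9 were estimated higher at both times, 5 lower at both and 4 higher at ZT12 and lower at ZT24. The interaction equals the daily difference under chilling minus that at 28 °C, and members were chosen for a large difference at 28 °C. Nothing is read from its sign over the members. OsR498G1018898500.01 went from 2026, 1847 and 1785 scaled counts in NT12 to 1444, 1565 and 1487 in CT12, a change of -0.34 in log2 (SE 0.11, adjusted p = 0.0288 in edgeR, and 5.22e-05 to 0.0722 over 19 alternatives). That call was lost without NT12 replicate 1 (edgeR adjusted p = 0.0611), CT12 replicate 1 (0.0722) or CT12 replicate 3 (0.0586), and under a block on replicate number (0.0561). With its rise at ZT24, the difference between its responses was 0.80 (SE 0.16, edgeR adjusted p = 0.00421), which held in all 19 alternatives with adjusted p from 1.37e-05 to 0.0141. Its ratio of ZT12 to ZT24 was 4.33 at 28 °C and 2.47 under chilling, the lowest chilled ratio of the 35. For OsR498G0611807100.01 the difference was 0.66 (SE 0.19, edgeR adjusted p = 0.0314), lost in 8 of 19 alternatives, with adjusted p from 0.000856 to 0.0769. Those 8 were the fit blocked on replicate number (0.0665) and those without NT12 replicate 3 (0.0769), CT12 replicate 1 (0.0594) or 3 (0.0656), NT24 replicate 2 (0.0594) or 3 (0.0766), and CT24 replicate 2 (0.0582) or 3 (0.0725). The number of members called in this comparison was 1 without NT12 replicate 3, NT24 replicate 2, CT24 replicate 2 or CT24 replicate 3. In that order, 4260 of 25075, 4455 of 25155, 4442 of 25224 and 4474 of 25135 genes tested were called. With all libraries it was 5486 of 24700.

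The terms of the rule were also read in libraries that had not been used to choose the genes. The genes so chosen were not the 35 members, whose choice used all 12 libraries. The rule was applied to the 8 libraries left when all libraries of 1 replicate number were set aside, and the genes so chosen were then read in the 4 libraries set aside, 1 per group, scaled on their own. It chose 37, 36 and 38 genes without replicate number 1, 2 and 3, of which 23, 21 and 23 were among the 35 members. Their median daily difference in the unused libraries was -2.36, -2.15 and -2.49. The rule's limit of -2 was met again by 29 of 37, 25 of 36 and 28 of 38 genes. A wider limit of -1 was met by 35, 36 and 38. Small chilling changes carried over less often. Both stayed below the rule's limit of 0.5 in 12 of 37 genes (32.4%), 10 of 36 (27.8%) and 7 of 38 (18.4%). At a wider limit of 1, both were within it in 29, 22 and 24 genes. All 3 terms of the rule were met again by 10, 8 and 3 genes.

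In the same unused libraries, both chilling changes were below 0.5 in 25.0%, 25.3% and 23.5% of all abundant genes, close to the shares among the genes chosen. Of the 1031, 968 and 889 abundant genes chosen only for being dusk-high in the other 8 libraries, 4.56%, 4.96% and 5.40% met both limits. The shares of the chosen genes, which rest on 12, 10 and 7 genes, were above those of dusk-high genes and near those of abundant genes. They describe the sets chosen here and not the 35 members. A single library per group adds its own scatter to every such value, and no test was made.

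Membership itself moved with single libraries. When 1 of the 12 libraries was left out, the rule chose between 31 and 40 genes, of which between 28 and 35 were members. Only 9 members were chosen in all 12 runs, 18 were lost in 1 or 2 runs and 8 in 3 or more. OsR498G0408461300.01, nearest to the limits on both the daily difference and the change at ZT12, was chosen in 4 of 12. Outside the 35, 46 genes were chosen in at least 1 run.

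Whether the members count as unmoved at ZT12 depended on how libraries were scaled. The size factors were 1.37 to 1.42 in NT12 and 0.680 to 0.803 in CT12, although the total counts of these groups differed far less, and 0.968 to 1.13 at ZT24. With counts scaled by library totals instead, the members' chilling differences at ZT12 had a median of -0.84 and ranged from -1.29 to -0.30. All 35 were then below 0, and 30 were at -0.5 or lower. The abundant genes moved along, from a median of 0.14 to -0.62, so relative to them the members shifted little. Under upper-quartile scaling the members' median was -0.30, and 28 met the limit at ZT12. At ZT24 the median was 0.25 under median-of-ratios and 0.22 under total-count scaling, and the daily difference stayed below -2 in all 35 under both.

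**Figure D5:**
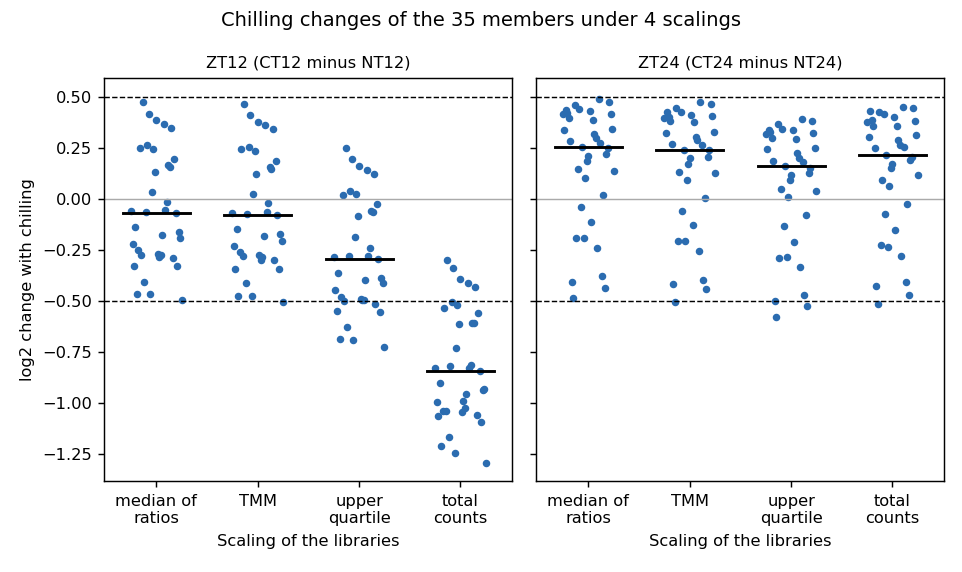
Points are the 35 members' log2 changes of M with chilling at ZT12 (left) and ZT24 (right) under 4 ways of scaling the libraries, with the median as a bar and the limits of 0.5 dashed. At ZT12 the median falls from -0.07 under median-of-ratios to -0.84 under total counts, while at ZT24 it stays between 0.16 and 0.25.

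Replicate spread, which the rule did not use, was larger among members than among abundant genes in the NT24 libraries. The SD of log2(scaled count + 1) within NT24 had a median of 0.296 over the members, against 0.161 over the abundant genes. In CT24 it was 0.211 against 0.165, in NT12 0.184 against 0.158, and in CT12 0.240 against 0.246. Members are at their lowest counts at ZT24, and the part of counting error in this was not tested. The highest SD of a member was 1.535 in NT24, that of OsR498G0102566400.01.

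The members were not gathered under 1 stretch of identifiers. The first 2 digits after OsR498G run from 00 to 12, and what they stand for is not stated in the files. Members were found under 11 of these numbers, with 6 (17.1%) under 01 and 5 (14.3%) under 03, where the abundant genes had 14.1% and 13.5%. None was under 00 or 11, which held 0.0552% and 4.68% of the abundant genes. None of the 35 was among the identifiers without the OsR498G prefix, which made up 2.78% of the abundant genes.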

How the data were processed

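The authors deposited a table of raw counts per gene identifier for 12 libraries, without normalization. Per the submitters' processing notes, HISAT2 2.0.4 was used. Not given in the sources used here are the counting tool, the annotation, the genome build and strand handling, which leaves counts of overlapping genes and close copies uncertain. Columns were matched to samples by title. The members and all choices were made with earlier results of these data known. Identifiers to print were taken as the 2 largest daily differences, the 2 highest mean levels, and the 2 highest and 2 lowest chilling changes at each time.

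The rule used median-of-ratios size factors from rows above 0 in all libraries. Tests were run on the whole table with edgeR 4.0.16 in R 4.3.3. The expression filter (minimum count 10, minimum total 15) kept 24700 genes with 99.98% of the counts. Libraries were scaled by TMM (trimmed mean of M values) and the quasi-likelihood fit had a term for each group and no block, with 8 residual degrees of freedom and Benjamini-Hochberg adjustment over all genes. SE and 95% intervals were derived from the F statistic, and the fit was also run on simulated data. In those data few genes changed, and only in CT12. That run therefore does not bear on scaling where many genes change. Libraries of a group differed by 25.5 to 139 in chi-square per gene, so each was counted separately. The 19 alternatives per call were RLE, upper-quartile and total-count scaling, no filter, a replicate block, limma-voom (limma 3.58.1), DESeq2 1.42.0, and each of the 12 libraries left out. No sequence is shown.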

Additional observations from a re-analysis of the deposited data

Results flagged for a closer look

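The response to chilling differed between ZT24 and ZT12 in 2 members by the interaction term of edgeR's fit, against 22.2% of the genes tested. The difference in log2 change was 0.80 for OsR498G1018898500.01, whose call held in all 19 alternatives. It was 0.66 for OsR498G0611807100.01, whose call was lost in 8 of 19. In both members, chilled seedlings had lower estimates at ZT12 and higher estimates at ZT24 in comparison with unchilled ones. The rule keeps this difference below 1, so no member could show a large one.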

How the results depend on the processing

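The rule chose 65 genes under total-count scaling (5 of them members), 54 with M of at least 6, 287 with a daily difference of -1 or lower, and 6 or 205 with chilling limits of 0.25 or 1, against 35. The other settings gave 31 to 45. TMM chose 36 genes, 33 of them members, and upper-quartile scaling 45, 26 of them members. Members called at ZT12 numbered 4, against 9 under upper-quartile and 24 under total-count scaling, and 1 to 7 with 1 library left out. Of all 24700 genes tested, 11096 were called there, against 12201 and 15704 under these scalings. With 1 library left out this ran from 9522 of 25075 to 11867 of 25189. Members called at ZT24 numbered 3, against 1 under upper-quartile scaling, 1 with limma-voom, and 1 to 6 with 1 library left out. Of all 24700 genes tested, 10398 were called there, against 10580 under upper-quartile scaling and 10755 with limma-voom. With 1 library left out this ran from 8599 of 25203 to 11653 of 25189. Members called in the interaction numbered 2, against 6 under upper-quartile scaling, 19 under total counts, 4 with DESeq2, and 1 to 3 with 1 library left out. Of all 24700 genes tested, 5486 were called in it, against 5729, 10591 and 6821 in these 3 settings. With 1 library left out this ran from 4260 of 25075 to 7124 of 25189. All 35 were called in both daily comparisons in each of the 19 alternatives. The choice of members favours these calls in every setting, and nothing is read from them. In NT24 against NT12, 9208 of 25075 genes tested (without NT12 replicate 3) to 11936 of 25189 (without CT12 replicate 2) were called. In CT24 against CT12, 8722 of 25224 (without CT24 replicate 2) to 11725 of 25189 (without CT12 replicate 2) were called. Both ranges count calls in either direction.

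The members' median log2 change at ZT12 moved from -0.08 to -0.38 under upper-quartile and -0.85 under total-count scaling, and the daily one from -2.33 to -2.76 under total counts. These scalings moved the median of all genes at ZT12 from -0.02 to -0.31 and -0.77. Total counts also reversed OsR498G0816438900.01 (-0.30) and OsR498G0511415500.01 (-0.34) at ZT12. Same-numbered libraries correlated above 0.1, in their deviations from group means, in 4 of 18 pairs. Deviations of 3 libraries from their mean sum to 0, so these values are tied to each other. They cannot settle whether the numbers pair the samples. With a replicate block, 2 members were called at ZT12, 2 at ZT24 and 1 in the interaction. The calls among all 24700 genes tested were then 10157, 9361 and 4521.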
